A study of Mus musculus with 12 samples.

Results

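Cells of the bone marrow read interferons and interleukin-10 (IL-10) through paired receptor chains and the Janus kinases bound to them. This report follows 10 genes of that system, chosen by symbol from the deposited table: the type I interferon receptor chains Ifnar1 and Ifnar2, the interferon-γ receptor chains Ifngr1 and Ifngr2, the IL-10 receptor chains Il10ra and Il10rb, the cytokine gene Ifng, and the kinases Jak1, Jak2 and Tyk2. All 10 were among the 12199 genes of the table and among the 12175 genes tested.

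RNA was sequenced from whole BM of C57BL/6 mice of 4 genotypes, to ask how combinations of mutations found together in acute myeloid leukemia change gene expression. WT mice carried no mutant allele. DF mice carried 1 floxed allele of Dnmt3a (Flox/+) with the MxCre transgene and the allele Flt3 ITD/+, TF mice were Tet2+/- with Flt3 ITD/+, and TFD mice carried all of these alleles. Dnmt3a and Tet2 encode enzymes that add and oxidize methyl groups on DNA, and Flt3 ITD encodes a cytokine receptor with kinase activity in which a stretch of the protein is duplicated in tandem. All mice, WT included, had received poly(I:C) at 8 to 10 weeks of age and were analysed 8 to 9 weeks later. Poly(I:C) mimics viral double-stranded RNA and itself elicits type I interferon, and MxCre is driven by the interferon-responsive Mx1 promoter, so every group had once been exposed to an interferon stimulus. MxCre also acts outside blood cells, and the RNA came from unsorted marrow. The values are from 3 WT, 3 DF, 3 TF and 2 TFD libraries, with 8274153 to 15900904 counts each. TFD replicate 3 was not analysed here.

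A level is given as log2 CPM, the log2 of the counts scaled to a common library size (CPM) with TMM factors. A change is a log2 fold change from edgeR's quasi-likelihood test, where 1 means a level 2 times as high, with its standard error (SE). A gene was called, and is said to have risen or fallen, when its Benjamini-Hochberg adjusted p, computed across every tested gene of that comparison, was under 0.05. Of the targeted genes, Tet2 and Dnmt3a were not called lower in the genotypes that lack an allele, with log2 fold changes against WT of 0.21 for Tet2 in TF and -0.15 for Dnmt3a in DF, and Flt3 rose in each mutant genotype. WT replicate 3, TF replicate 3 and TFD replicate 2 had at least 10000 reads of Xist, the RNA of the inactive X chromosome, and 3 to 12 reads of the Y-linked Ddx3y. The other libraries, all 3 of DF among them, had 1040 to 2132 reads of Ddx3y and at most 538 of Xist. WT, TF and TFD were thus mixed in sex and DF was not, so the comparisons with DF also differ in sex composition. With a term for the libraries high in Xist, the same 7 of the 10 genes were called in DF versus WT. The labels call the cells mononuclear, yet the summed level of 11 neutrophil markers reached 52400 to 65940 CPM in WT.

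As background, type I interferons bind IFNAR2 and IFNAR1, which carry JAK1 and TYK2. Interferon-γ binds IFNGR1, and IFNGR2 joins it to signal through JAK1 and JAK2. IL-10 binds IL10RA, and IL10RB, which other cytokines of the family share, completes a complex that uses JAK1 and TYK2. The kinases phosphorylate STAT proteins, which enter the nucleus and switch on target genes. In marrow, interferons act on stem cells and on myeloid development, and IL-10 restrains inflammatory gene expression in macrophages.

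The promoters of the genes show where such signals could meet the DNA. They come from RefSeq (GRCm38.p6), which gave an entry for 8 of the 10 genes, all but Il10ra and Il10rb. The 250 bases before the start were searched on both strands for the GAS motif TTCNNNGAA, which STAT dimers bind, a shortened ISRE core GAAANNGAA, bound by interferon regulatory factors and STAT complexes, the ETS core CGGAAG, the PU.1 core GAGGAA and the GC box GGGCGG. Shown are Ifnar2, Ifngr1 and Tyk2, which rose in each mutant genotype, and Ifnar1, the partner chain of Ifnar2, which did not. Each is written in the direction of transcription, and capitals mark every match.

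Ifnar2, chr16:91372533-91372782, plus strand: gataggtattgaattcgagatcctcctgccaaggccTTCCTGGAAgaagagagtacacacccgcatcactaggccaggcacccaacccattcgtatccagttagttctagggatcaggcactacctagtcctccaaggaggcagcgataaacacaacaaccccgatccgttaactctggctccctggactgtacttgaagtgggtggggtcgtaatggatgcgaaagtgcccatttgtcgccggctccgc

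Ifnar1, chr16:91484965-91485214, plus strand: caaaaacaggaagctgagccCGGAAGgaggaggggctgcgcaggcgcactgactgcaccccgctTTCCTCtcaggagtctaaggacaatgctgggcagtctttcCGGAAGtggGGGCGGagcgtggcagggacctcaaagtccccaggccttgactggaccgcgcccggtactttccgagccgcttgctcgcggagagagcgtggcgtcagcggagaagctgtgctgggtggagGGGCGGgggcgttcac

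Ifngr1, chr10:19591699-19591948, plus strand: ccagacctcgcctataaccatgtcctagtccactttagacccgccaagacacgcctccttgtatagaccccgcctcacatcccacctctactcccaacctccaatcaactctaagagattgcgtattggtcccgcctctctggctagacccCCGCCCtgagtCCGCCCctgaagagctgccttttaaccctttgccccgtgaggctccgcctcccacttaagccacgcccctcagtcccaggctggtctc

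Tyk2, chr9:21131276-21131525, minus strand: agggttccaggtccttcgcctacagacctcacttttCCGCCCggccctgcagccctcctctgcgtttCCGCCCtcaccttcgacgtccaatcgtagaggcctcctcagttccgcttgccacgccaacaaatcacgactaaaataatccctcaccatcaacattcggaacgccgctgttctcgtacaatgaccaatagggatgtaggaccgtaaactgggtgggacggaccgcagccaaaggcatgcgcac

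In the Ifnar2 window the match was a GAS motif, TTCCTGGAA, from -214 to -206 relative to the start, with none of the other 4 motifs. Ifnar1 had no GAS motif, but 2 ETS cores, 1 PU.1 core and 2 GC boxes. Ifngr1 and Tyk2 had 2 GC boxes each, on the opposite strand, and no match to the other motifs. Among the 8 windows, the GAS motif lay in 2 (Ifnar2 and Ifng), the ETS core in 2 (Ifnar1 and Jak1), the PU.1 core in 1 and the GC box in 6. Of 32851 promoters of the same length, 7.02% held the GAS motif, 7.13% the ISRE core, 13.6% the ETS core, 23.3% the PU.1 core and 32.7% the GC box. The ISRE core was in none of the 8. A match is a run of letters and not a measured binding site.

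The receptor chains mostly rose, the kinases moved in opposite directions, and the cytokine gene fell. Ifnar2, Ifngr1, Il10ra and Tyk2 rose in DF, TF and TFD alike, while Ifng and Jak1 fell in all 3. In DF versus WT, 5 of the 10 genes were higher and 2 lower, where 21% of all genes tested were called higher and 16.6% lower. TF versus WT had 6 higher and 2 lower (19% and 15.6% of all genes), and TFD versus WT had 4 higher and 2 lower (14.7% and 11.6%). The median log2 fold change of the 10 genes was 0.27, 0.37 and 0.26 in DF, TF and TFD, beside 0.05, 0.02 and 0.01 over all genes tested. These 3 comparisons share the WT libraries. Across all genes tested, 11.1% were higher in each mutant genotype and 7.90% lower in each. The study picked Ifnar2, Ifngr1, Ifngr2, Ifnar1 and Il10ra out of these same samples as raised in at least 1 genotype, so their direction here is not independent evidence.

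**Figure D1:**
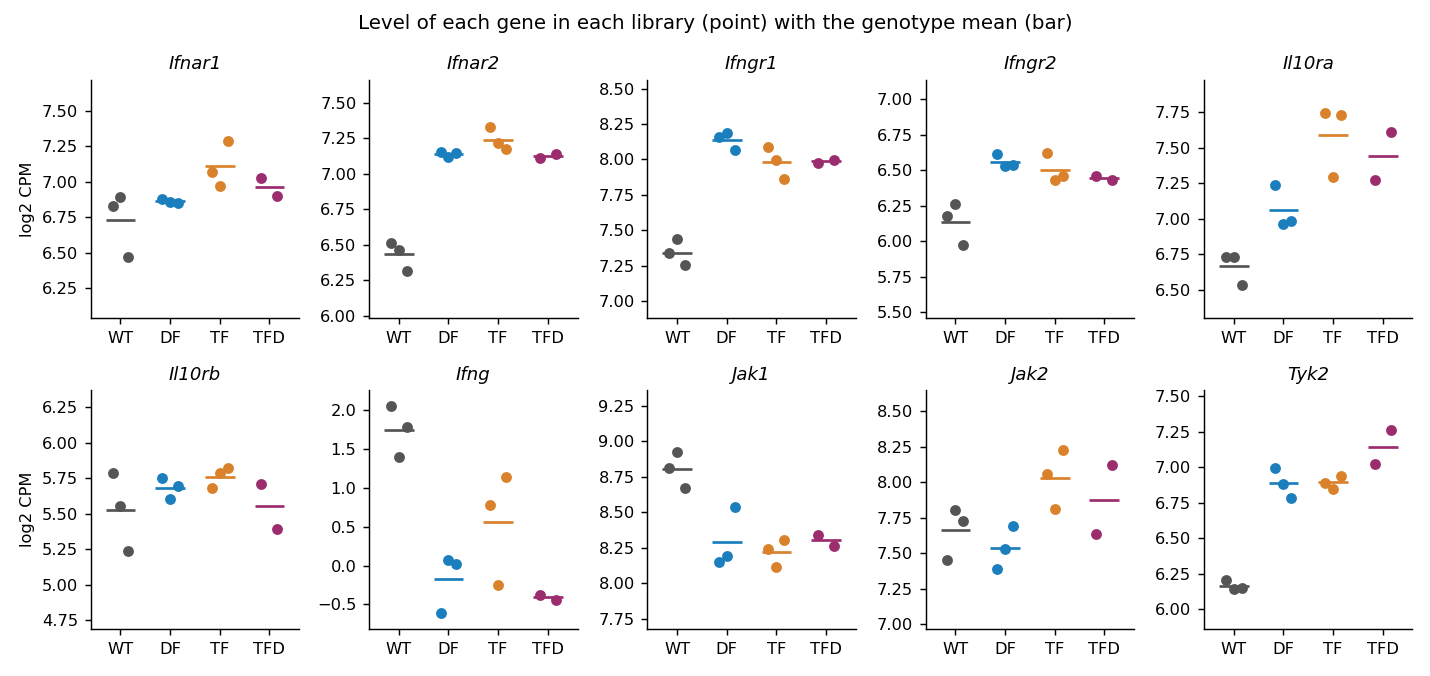
Level of each gene (log2 CPM) in each of the 11 libraries, 1 panel per gene, with the mean of each genotype as a bar. Every mutant library lies above every WT library for Ifnar2, Ifngr1, Ifngr2, Il10ra and Tyk2, and below for Ifng and Jak1. The share of all genes tested with such a separation was not counted. The separations given below gene by gene have no such baseline either.

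Among the type I interferon receptor chains, Ifnar2 rose and Ifnar1 changed less. Ifnar2 spans chr16:91372783-91405587 in mm10. Its level was 6.51, 6.47 and 6.32 in the WT libraries, 7.16, 7.12 and 7.15 in DF, 7.33, 7.21 and 7.18 in TF, and 7.11 and 7.14 in TFD. The lowest mutant library stood above the highest WT library, and the mutant genotypes overlapped or lay close together. The log2 fold change was 0.71 ± 0.09 in DF, 0.81 ± 0.09 in TF and 0.69 ± 0.10 in TFD (± SE), with adjusted p values of 9.93e-05, 5.01e-05 and 0.000358. Ifnar1, at chr16:91485215-91510522, encodes the chain to which TYK2 binds. Its level was 6.83, 6.89 and 6.47 in WT, 6.88, 6.85 and 6.85 in DF, 7.07, 6.97 and 7.29 in TF, and 7.02 and 6.90 in TFD. DF overlapped WT, and the TF and TFD libraries lay above WT, TFD by a narrow margin. It was called in TF alone, at 0.37 ± 0.12 (± SE) on the log2 fold change scale with an adjusted p of 0.0323. The values of 0.12 ± 0.12 in DF and 0.22 ± 0.14 in TFD had adjusted p values of 0.466 and 0.254. The TF call was lost without WT replicate 3 (0.24, adjusted p = 0.132), without TF replicate 3 (0.28, adjusted p = 0.116), without TF replicate 1, and with only the 2 groups in the fit (0.36, adjusted p = 0.0644). WT replicate 3 was the lowest WT library for each of the 6 receptor chains and for Jak1.

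Both interferon-γ receptor chains were above WT in every mutant library. Ifngr1, the ligand-binding chain, lies at chr10:19591958-19610225. It measured 7.34, 7.44 and 7.26 in WT, 8.16, 8.19 and 8.06 in DF, 8.09, 8.0 and 7.86 in TF, and 7.98 and 8.0 in TFD. Its log2 fold change was 0.79 ± 0.09 in DF, 0.64 ± 0.09 in TF and 0.64 ± 0.10 in TFD (± SE), with adjusted p values of 5.96e-05, 0.000336 and 0.000795. Ifngr2, the signalling chain at chr16:91547094-91564007, is the partner to which JAK2 binds. It measured 6.18, 6.27 and 5.97 in WT, 6.61, 6.53 and 6.54 in DF, 6.63, 6.43 and 6.46 in TF, and 6.46 and 6.43 in TFD. The gap to the highest WT library was smaller than for Ifngr1. Its log2 fold change was 0.42 ± 0.10 in DF and 0.36 ± 0.10 in TF (± SE), called with adjusted p values of 0.00676 and 0.0152, and 0.30 ± 0.11 in TFD did not pass the test (adjusted p = 0.0668). With a term for Xist the TFD value was 0.32 and passed (adjusted p = 0.0371). Without WT replicate 3 the DF and TF values became 0.30 (adjusted p = 0.0523) and 0.28 (adjusted p = 0.0728), neither called, and the TF call was also lost without TF replicate 1.

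Of the IL-10 receptor chains, Il10ra rose and Il10rb was not called in any genotype. Il10ra, the ligand-binding chain made mainly by blood cells, lies at chr9:45253839-45269146 on the minus strand. Its level was 6.73, 6.73 and 6.54 in WT, 7.24, 6.96 and 6.99 in DF, 7.74, 7.30 and 7.73 in TF, and 7.28 and 7.61 in TFD. All mutant libraries lay above WT, and the 3 TF libraries lay above the 3 DF libraries. The log2 fold change was 0.40 ± 0.14 in DF, 0.93 ± 0.14 in TF and 0.78 ± 0.15 in TFD (± SE), with adjusted p values of 0.041, 0.000385 and 0.00273. The DF call was close to the threshold. It was lost in 10 of 19 alternatives, among them DESeq2 and leaving out any of the 3 WT or 3 DF libraries, with adjusted p up to 0.183. Il10rb, the chain shared with the receptors for interleukin-22 and interferon-λ, lies at chr16:91406235-91425834. Its level was 5.79, 5.56 and 5.23 in WT, 5.75, 5.60 and 5.69 in DF, 5.68, 5.78 and 5.82 in TF, and 5.71 and 5.39 in TFD. Every mutant genotype overlapped WT. Its log2 fold change was 0.14 ± 0.14 in DF, 0.22 ± 0.14 in TF and 0.02 ± 0.15 in TFD (± SE), with adjusted p values of 0.445, 0.233 and 0.945. In the GENCODE annotation of mm10, 30.8% of the Il10rb exon bases and 9.92% of those of Ifnar2 are shared with Gm21970 on the same strand, so part of these counts cannot be assigned to 1 gene.

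The kinases did not move together. Jak1, which serves all of these receptors, fell. It lies at chr4:101151974-101265282 on the minus strand and measured 8.81, 8.92 and 8.67 in WT, 8.15, 8.19 and 8.54 in DF, 8.24, 8.12 and 8.31 in TF, and 8.34 and 8.27 in TFD. No mutant library reached the lowest WT library, although DF replicate 3 came near it. The log2 fold change was -0.50 ± 0.12 in DF, -0.58 ± 0.12 in TF and -0.50 ± 0.14 in TFD (± SE), with adjusted p values of 0.00655, 0.00307 and 0.0173. The TFD call was lost without WT replicate 2, TFD replicate 1 or TFD replicate 2, with adjusted p up to 0.0944. On the opposite strand, Raver2 shares 7.49% of the exon bases of Jak1. Tyk2, the kinase of the type I interferon and IL-10 receptors at chr9:21104068-21131275 on the minus strand, rose. It measured 6.21, 6.14 and 6.15 in WT, 6.99, 6.88 and 6.79 in DF, 6.89, 6.85 and 6.94 in TF, and 7.02 and 7.26 in TFD. The WT libraries lay close together, and the TFD libraries were the highest of all. The log2 fold change was 0.72 ± 0.10 in DF, 0.73 ± 0.10 in TF and 0.98 ± 0.11 in TFD (± SE), with adjusted p values of 0.000139, 0.00017 and 5.25e-05. Jak2, the kinase of IFNGR2 and of the erythropoietin and thrombopoietin receptors, lies at chr19:29251803-29313080. It measured 7.45, 7.81 and 7.72 in WT, 7.38, 7.53 and 7.69 in DF, 8.06, 7.81 and 8.23 in TF, and 7.63 and 8.12 in TFD. DF and TFD overlapped WT, and TF lay just above it. No comparison with WT was called, at -0.13 ± 0.15 in DF, 0.37 ± 0.15 in TF and 0.23 ± 0.17 in TFD (± SE), with adjusted p values of 0.534, 0.074 and 0.35. The TF value passed the threshold in 5 of 19 alternatives, with adjusted p from 0.0423 to 0.228 over all of them.

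Ifng, the cytokine made mainly by T and NK cells, fell in each mutant genotype. It lies at chr10:118441047-118445892 and was the gene with the fewest reads of the 10. It had 50, 21 and 38 counts in WT, 8, 16 and 10 in DF, 21, 10 and 24 in TF, and 12 and 8 in TFD. On the log2 CPM scale these were 2.04, 1.39 and 1.77, then -0.61, 0.07 and 0.02, then 0.78, -0.25 and 1.14, then -0.37 and -0.45. Every mutant library lay below WT, and TF was the genotype with the widest spread. The log2 fold change was -1.93 ± 0.38 in DF, -1.12 ± 0.36 in TF and -2.20 ± 0.44 in TFD (± SE), with adjusted p values of 0.00179, 0.0278 and 0.00318. The TF call was lost without WT replicate 1, WT replicate 3, TF replicate 1 or TF replicate 2, with values from -1.19 to -0.81 and adjusted p up to 0.0998 in these 4 settings. By limma on log2(CPM + 1), a scale that understates the change of low genes, the values were -1.20, -0.79 and -1.32, each called. Gm49751, on the same strand, shares 20.6% of the Ifng exon bases.

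**Figure D2:**
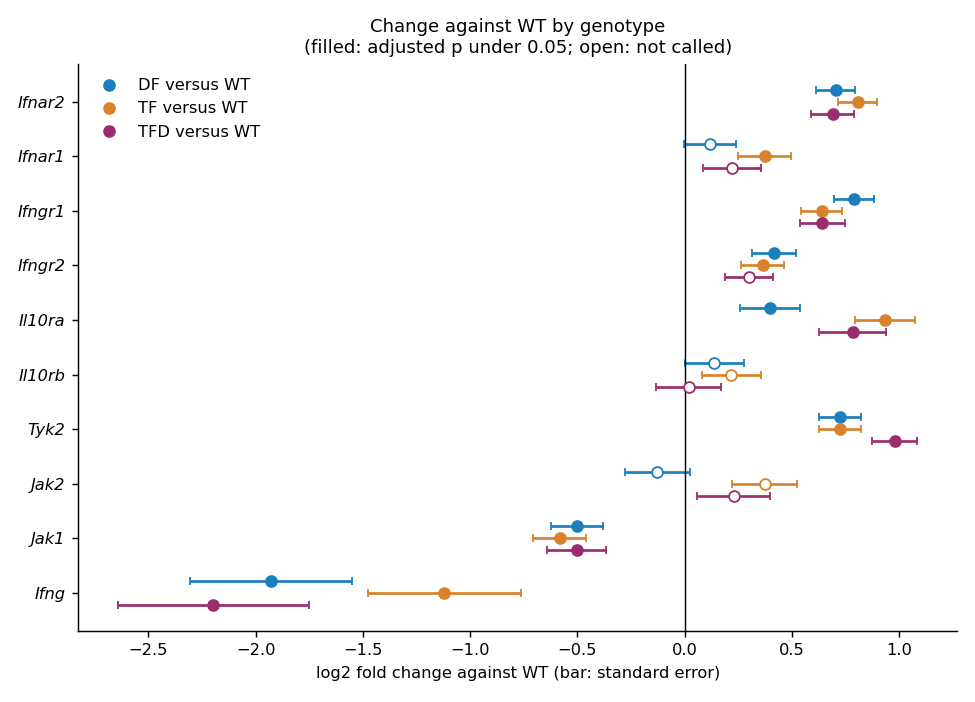
Log2 fold change against WT (x axis) of each gene in DF, TF and TFD, with the standard error as a bar, filled where the adjusted p was under 0.05. Ifnar2, Ifngr1, Il10ra and Tyk2 are filled to the right in all 3 genotypes, Jak1 and Ifng to the left, and Il10rb and Jak2 are open throughout.

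Markers of other cells moved with these genes. The summed level of 13 monocyte and macrophage markers, such as Csf1r and F13a1, was 2099 to 2193 CPM in WT, 6259 to 7056 in DF, 5915 to 7357 in TF and 6116 to 6173 in TFD. Of the 13, 9 rose in each mutant genotype, as did 11.1% of all genes, and none was listed at 0 in any library. For 22 T and NK cell markers the sum was 195 to 214 CPM in WT, 124 to 141 in DF, 126 to 201 in TF and 84.7 to 118 in TFD. Of these, 15 fell and 1 rose in DF, 10 fell and 1 rose in TF, and 14 fell in TFD, where 16.6%, 15.6% and 11.6% of all genes were called lower. None of the 22 was at 0 in any library. TF replicate 3, the mutant library with the highest Ifng level, also had the highest T and NK sum of the mutants, 201 CPM. It also had their highest B cell and erythroid sums, 137 and 1721 CPM. Other libraries did not keep this order. TF replicate 1 had more Ifng than DF replicate 3 (1.70 against 0.99 CPM) but a lower T and NK sum (129 against 141 CPM). The sum of 14 B cell markers was 639 to 714 CPM in WT and at most 137 in any mutant library. Erythroid markers (11 genes) summed to 1698 to 2229 CPM in WT, 309 to 448 in DF, 613 to 1721 in TF and 594 to 740 in TFD. For 9 stem and progenitor markers the sums were 183 to 205 CPM in WT and 262 to 372 in the mutants. Early granulocyte markers (5 genes) summed to 2981 to 3140 CPM in WT, 4676 to 6490 in DF, 2753 to 4494 in TF and 3942 to 5734 in TFD. Neutrophil markers summed to 59190 to 83600 CPM in DF, 37310 to 47850 in TF and 23520 to 47150 in TFD. The part of these shifts in the levels of the receptors, kinases and Ifng was not tested. In RNA from bulk marrow, fewer cells of a type and less RNA per cell cannot be told apart.

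**Figure D3:**
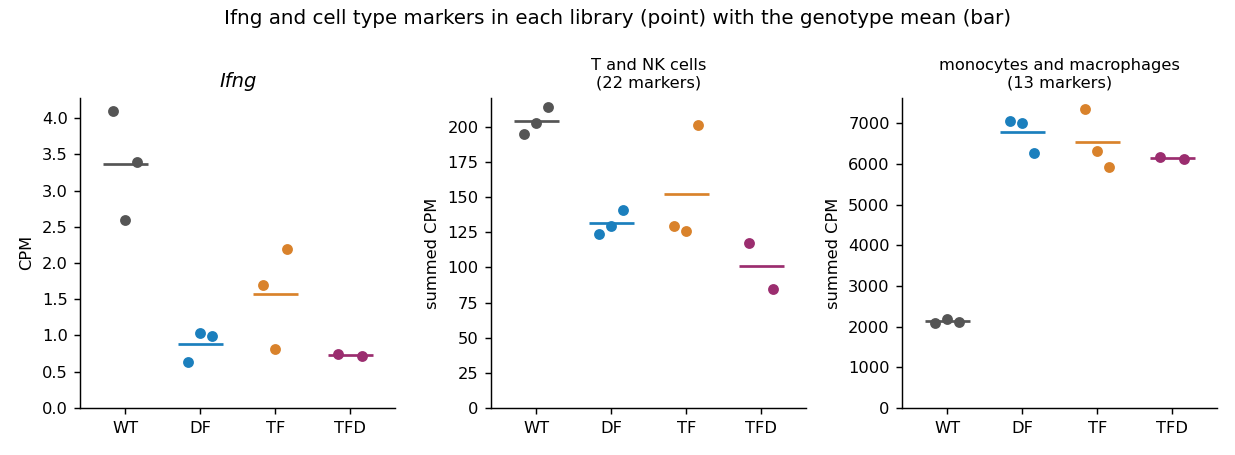
Level of Ifng (CPM) and summed CPM of T and NK cell markers and of monocyte and macrophage markers in each library, with the genotype mean as a bar. Ifng and the T and NK markers are lower in most mutant libraries than in WT, TF replicate 3 being the nearest to WT in both, and the monocyte and macrophage markers are higher in all mutant libraries.

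Levels of different genes were compared per length, as log2 RPKM, the log2 CPM corrected for the deposited gene length. In WT, Jak1 (6.40 ± 0.12) and Ifngr1 (6.27 ± 0.09) led (SD, n = 3), and their libraries overlapped. Jak2, Ifngr2, Il10ra, Ifnar2 and Il10rb followed from 5.32 down to 4.64, each overlapping the next in order. Ifnar1 (3.92 ± 0.23) and Tyk2 (3.88 ± 0.04) overlapped each other below them, and Ifng (1.46 ± 0.33) was the lowest. In the mutants Ifngr1 alone led, at 7.07 ± 0.06 in DF, 6.91 ± 0.11 in TF (SD, n = 3) and 6.92 ± 0.01 in TFD (SD, n = 2), with no overlap with Jak1, the next in order. Tyk2 stood above Ifnar1 without overlap in every mutant genotype. In DF, TF and TFD, Ifng stayed last, at -0.45 ± 0.38, 0.29 ± 0.73 and -0.68 ± 0.05 respectively (SD).

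The balance between partners was described by the difference of their log2 RPKM in each library, without a test. Ifnar1 minus Ifnar2 was -0.99 to -0.71 in WT, -1.44 to -1.41 in DF, -1.40 to -1.03 in TF and -1.38 to -1.23 in TFD, so Ifnar2 led in every library and by more in the mutants. Ifngr1 minus Ifngr2 was 1.14 to 1.26 in WT and 1.39 to 1.64 over the mutant libraries. Il10ra minus Il10rb was 0.03 to 0.39 in WT, 0.38 to 0.57 in DF, 0.60 to 1.15 in TF and 0.65 to 1.30 in TFD, with DF overlapping WT and the other mutants above both. For the kinases, Jak1 minus Tyk2 was 2.40 to 2.66 in WT and 0.88 to 1.63 over the mutant libraries, with no overlap. Jak1 minus Jak2 was 0.88 to 1.29 in WT, 0.60 to 0.78 in DF, 0.01 to 0.24 in TF and 0.08 to 0.64 in TFD. Jak2 minus Tyk2 was 1.19 to 1.61 in WT, 0.34 to 0.85 in DF, 0.91 to 1.24 in TF and 0.56 to 0.81 in TFD, TF overlapping WT. Tyk2 was thus nearer to Jak1 in level per length in every mutant library than in any WT library. This follows from the separate shifts of both genes given above and is no further result.

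**Figure D4:**
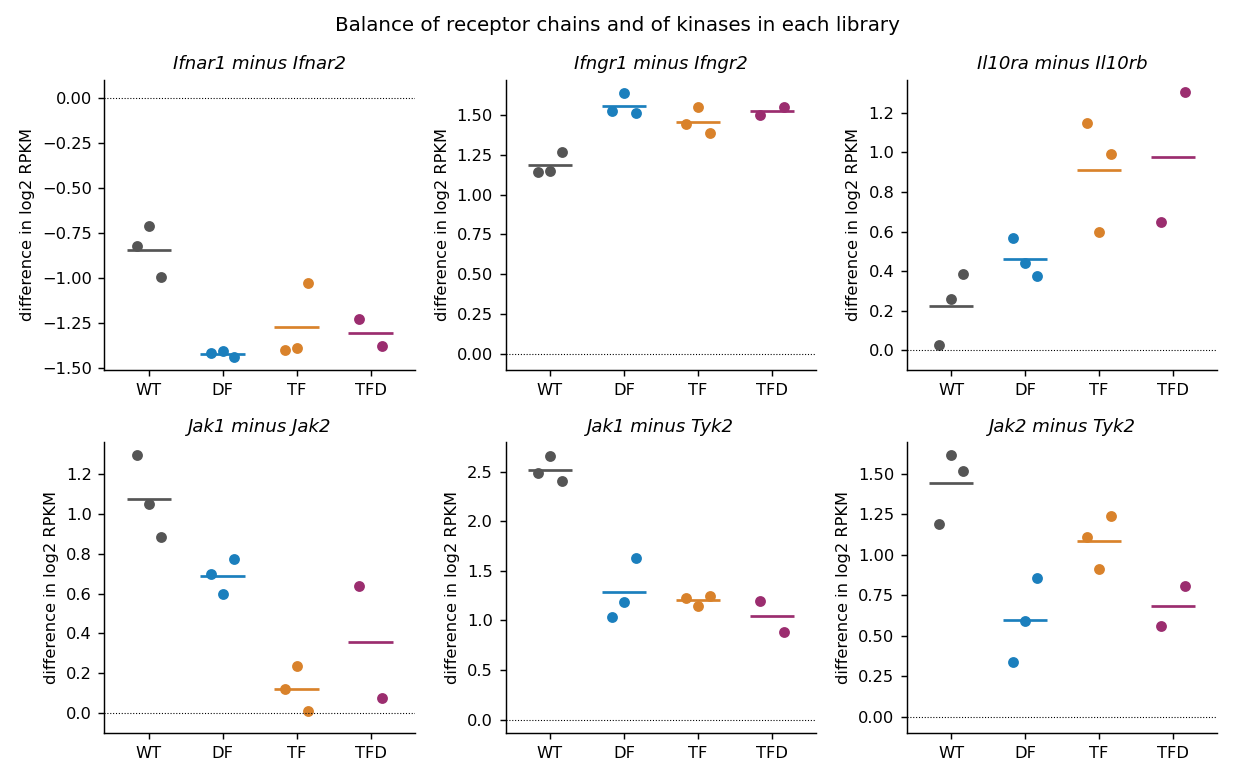
Difference in log2 RPKM between partner genes in each library, with the genotype mean as a bar and a dotted line at 0, where both are equal per length. Jak1 minus Tyk2 separates all mutant libraries (0.88 to 1.63) from WT (2.40 to 2.66), and Ifngr1 minus Ifngr2 does so in the other direction. The former follows from Jak1 lying below and Tyk2 above WT in every mutant library.

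Ifnar2, Il10rb, Ifnar1 and Ifngr2 lie in that order within 191.2 kb of chromosome 16, on the same strand, and they did not change as a block. In DF versus WT their log2 fold changes were 0.71, 0.14, 0.12 and 0.42, with Ifnar2 and Ifngr2 called, and in TF versus WT they were 0.81, 0.22, 0.37 and 0.36, with all but Il10rb called. The table held 8 other genes within 200 kb of the group. Donson, needed for DNA replication, fell in each genotype, by -0.88 in DF, -0.63 in TF and -0.69 in TFD. Itsn1, which encodes an endocytic scaffold protein, was called lower in DF against WT (-1.24, SE 0.18, adjusted p = 0.000238), and it was lower in DF than in TF (-1.12, SE 0.18, adjusted p = 0.00482). A930006K02Rik (0.80, adjusted p = 0.0331) and Dnajc28 (0.75, adjusted p = 0.0188) were higher in TF than in WT, and A930006K02Rik was also lower in DF than in TF (-1.0, SE 0.26, adjusted p = 0.0434). Tmem50b, Gart, Son and Cryzl1 were not called in any comparison with WT. In DF, TF and TFD, the median log2 fold change of the 8 was -0.07, -0.03 and 0.02.

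The mutant genotypes were then compared with each other, to ask whether the partner of Flt3 ITD mattered. DF carried MxCre and a floxed allele and TF neither, and these genotypes also differed in sex composition. In DF versus TF, the part of the Dnmt3a and Tet2 alleles cannot be told apart from these. Between DF and TF, 1 of the 10 genes was called, Il10ra, at -0.54 ± 0.14 (± SE, adjusted p = 0.0422), lower in DF, where 4.27% of all genes were called lower and 1.67% higher. The call was lost in 7 of 19 alternatives (adjusted p up to 0.169), among them the one with the Xist term (-0.50, adjusted p = 0.0742) and those without WT replicate 2, DF replicate 2, DF replicate 3, TF replicate 1 or TF replicate 3. Jak2 was -0.50 (SE 0.15, adjusted p = 0.0759), and it was called by DESeq2, which called 2 of the 10 genes beside 8.81% of all genes. Ifng was -0.81 (SE 0.40, adjusted p = 0.301) and Ifnar1 -0.25 (SE 0.12, adjusted p = 0.285). The other 6 genes lay between -0.10 and 0.15. None of the 10 genes was called between TFD and the mutants with 1 epigenetic allele fewer. In DF versus TFD, edgeR called 0% of all genes. At an unadjusted p under 0.05 it marked 2 of the 10 genes, Il10ra (-0.39, SE 0.15) and Tyk2 (-0.26, SE 0.11), beside 14.2% of all genes, and DESeq2 called none of the 10 beside 2.12%. In TF versus TFD, 0.0164% of all genes were called. The unadjusted test marked 2 of the 10, Ifng (1.08, SE 0.46) and Tyk2 (-0.25, SE 0.11), beside 8.77%, and DESeq2 none beside 1.1%. Set against the average of DF and TF, TFD had 0.0164% of genes called. Tyk2 (0.25, SE 0.09, adjusted p = 0.492) was the 1 gene of the 10 marked without adjustment, beside 8.18%, and DESeq2 called none beside 0.542%.

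Other genes of the pathway came from lists of known ligands, receptors, kinases, STAT proteins, inhibitors and targets. Of 26 other ligands, among them Ifnb1 and Il10, none was in the table after the authors' filter. Of 7 other receptors of the same class, 4 were tested. Ifnlr1, the ligand-binding chain for interferon-λ, fell in TF (-0.83, SE 0.21, adjusted p = 0.00836), and Il20rb, Il22ra2 and F3 were not called.

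The other kinase and STAT genes described here did not move in a common direction. Stat5a and Stat5b, which carry signals of growth factor receptors such as FLT3 and of JAK2, rose in each genotype, Stat5a by 0.28, 0.45 and 0.37 and Stat5b by 0.31, 0.32 and 0.35 in DF, TF and TFD. Stat4, which interleukin-12 uses to induce Ifng in T and NK cells, fell by -0.77 (SE 0.20) in DF, -1.15 (SE 0.20) in TF and -1.30 (SE 0.23) in TFD. Irf9, which joins STAT proteins in the type I interferon complex, fell by -0.42 ± 0.11 in DF and rose by 0.52 ± 0.10 in TF (± SE), with adjusted p values of 0.0076 and 0.00243, and was 0.05 in TFD. Stat2 was not called against WT, at -0.34, 0.36 and 0.14. Jak3 (0.50, 0.04 and 0.24), Stat3 (0.11, -0.17 and -0.14) and Stat6 (0.23, 0.10 and 0.17) were not called either. Between DF and TF, Irf9 was lower in DF by -0.94 (SE 0.11, adjusted p = 0.00122) and Stat2 by -0.69 (SE 0.16, adjusted p = 0.0233).

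Of 20 inhibitors, 6 rose and 3 fell in DF, 5 rose in TF, and 3 rose and 1 fell in TFD, beside 21% higher and 16.6% lower over all genes in DF, 19% and 15.6% in TF, and 14.7% and 11.6% in TFD. Socs2, Cish and Socs6, inhibitors of the SOCS family of which Socs2 and Cish are known STAT5 targets, rose in each genotype. Socs2 rose by 3.06 (SE 0.19), 3.76 (SE 0.19) and 3.59 (SE 0.20) in DF, TF and TFD, Cish by 1.32, 1.26 and 1.98, and Socs6 by 0.74, 0.73 and 0.81. In DF versus TF, Ptpn1, a phosphatase that acts on JAK2 and TYK2, was higher in DF (0.45, SE 0.10, adjusted p = 0.0249), and Socs2 (-0.70, SE 0.15, adjusted p = 0.02) and Usp18 (-3.22, SE 0.36, adjusted p = 0.00122) were lower. Usp18 binds IFNAR2 and blocks type I interferon signalling.

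Interferon-γ target genes were compared next. Of 23 tested from a list of 26, 2 rose and 10 fell in DF (21% and 16.6% of all genes), 6 rose and 2 fell in TF (19% and 15.6%), and 3 rose and 8 fell in TFD (14.7% and 11.6%). The 4 genes called in both DF and TF moved the same way in each. Between DF and TF, 13 of the 23 were lower in DF and none was higher (4.27% and 1.67% of all genes), with a median of -0.85 beside 0.02 over all genes tested. The guanylate-binding protein genes Gbp3 (1.29, 1.33 and 1.37 in DF, TF and TFD) and Gbp7 (0.55, 1.02 and 1.14) rose in each genotype. Gbp9 (-2.04, -0.66 and -1.15) and Cd274, which encodes the checkpoint ligand PD-L1 (-1.17, -0.96 and -1.12), fell in each. Many of these genes also respond to type I interferon. Of 11 IL-10 target genes, 1 rose and 2 fell in DF, and 2 fell in TF and in TFD, where 16.6%, 15.6% and 11.6% of all genes fell in DF, TF and TFD. Hmox1, which encodes heme oxygenase-1, fell in each genotype, by -1.10, -1.28 and -0.98. Between DF and TF, 1 of the 11 was called, Cd163, a hemoglobin scavenger receptor of macrophages, at -2.24 (SE 0.44, adjusted p = 0.0133).

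**Figure D5:**
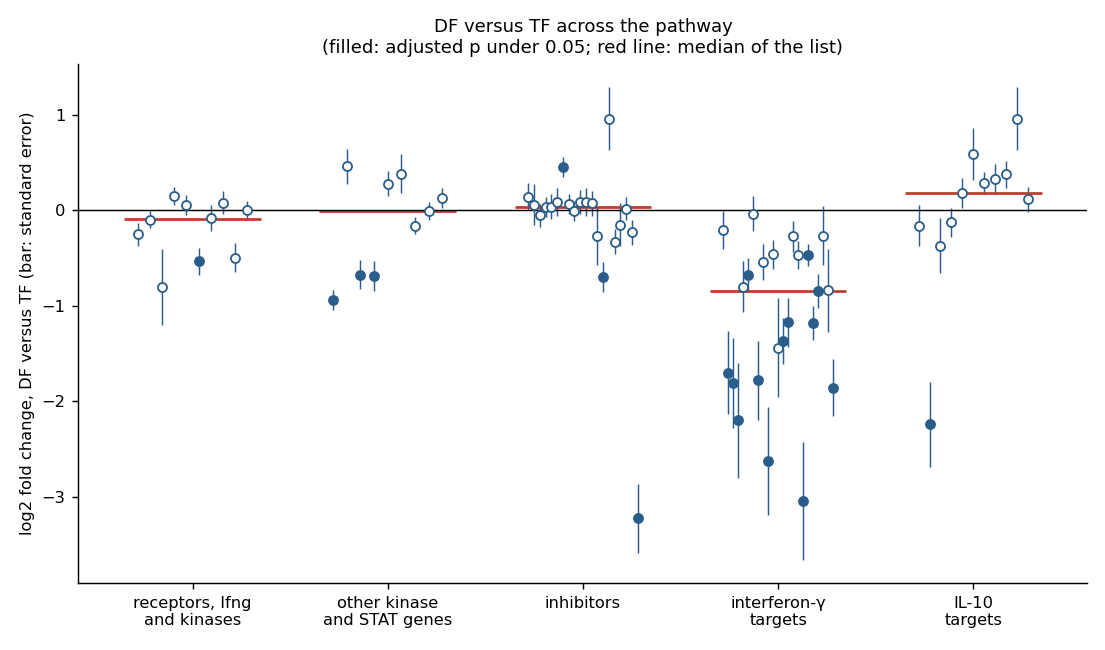
Log2 fold change of DF versus TF (y axis) with its standard error for each gene of 5 lists, filled where the adjusted p was under 0.05, with the median of each list as a red line. Of the 10 receptor, cytokine and kinase genes 1 is filled, and of the 23 interferon-γ targets 13 are filled, all below 0.

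The genes most like each member were those with the highest Pearson r of log2(CPM + 1) over the 11 libraries, which share the split into WT and mutant mice. For Ifnar2 they were Nostrin, Selplg and Ccl9 (r = 0.99 each), and for Ifngr1 F13a1, Emb and Sdr42e1 (0.98 to 0.99). F13a1, which encodes a coagulation factor subunit, is also 1 of the monocyte and macrophage markers above. Tyk2 went with Rassf8, Zfyve28 and Sh3tc1 (0.98 to 0.99), Il10ra with Amz1, Plekhm3 and Abi2 (0.98 each) and Ifngr2 with Tm2d2, Gpr108 and Gprin3 (0.96 to 0.97). Jak1 was most like Cpeb4, Gm608 and D930015E06Rik (0.97 to 0.98). Ifng was most like Bdh1, Prf1 and Ntn4 (0.96 to 0.97), of which Prf1 encodes perforin of cytotoxic T and NK cells. Prf1 fell in each mutant genotype, by -1.60 ± 0.33 in DF, -1.04 ± 0.32 in TF and -1.86 ± 0.39 in TFD (± SE), with adjusted p values of 0.00268, 0.0246 and 0.0039. The genes that changed least followed others less closely, Ifnar1 with Slamf8 and Neurl2 (0.88 to 0.89), Il10rb with Gna15, Dxo and U2af1l4 (0.90 to 0.93) and Jak2 with Ppm1k, Slfn8 and Itgb1 (0.94 to 0.95).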

How the data were processed

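RNA from whole BM was globin-depleted and sequenced with a stranded total RNA kit. The authors used STAR against mm10 and, for uniquely mapped reads, featureCounts on the refGene annotation, and their filter demanded over 0.5 CPM in over 3 samples. Tool versions and the strandedness of counting are not given in the sources used here. The deposited counts were not normalized. The deposited log2 CPM values equal those recomputed here from the counts with edgeR (prior count 0.25, TMM factors) to within 5e-09. The authors also deposited gene lengths, which were used for log2 RPKM.

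The 11 libraries were grouped by their titles. The same filter over the 11 libraries left 12175 genes, which were tested on the counts in R 4.3.3 with edgeR 4.0.16, with a mean for each genotype, and called at an adjusted p under 0.05. TMM factors ranged from 0.924 to 1.043. In the study's statistics a data point stands for a single mouse, and the libraries were taken as separate mice. The p-values measure the spread between libraries. Counting error is small except for Ifng, and the 2 or 3 libraries per genotype limit the precision. Alternatives were library totals or RLE factors, DESeq2 1.42.0, limma 3.58.1 on log2(CPM + 1), no filter, only the groups compared, the replicate number as a block, a covariate marking the libraries of at least 10000 Xist reads, each library left out in turn, and a prior count of 1 for the ratios. The procedure was tested on simulated counts. Plots were made in matplotlib 3.10.9.

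The 10 genes and all lists were chosen with earlier results of these data known. The text names all 10 genes and the other kinase and STAT genes. Of each other pathway list it names up to 3 genes that changed most in TFD among those called with 1 sign in DF, TF and TFD or, where there were none, up to 2 called in any mutant genotype. It also names the neighbours on chromosome 16 within 200 kb and the 3 genes most correlated with each of the 10. Some genes that these rules select are not reported here. Neighbours with exons listed on other chromosomes were left out. Genes of the lists named for DF versus TF, and Gart, Son and other names given to complete a short count, were chosen after their values were seen. Overlapping genes were found in GENCODE annotation of mm10.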

Additional observations from a re-analysis of the deposited data

How the results depend on the processing

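For the 10 genes against WT and in DF versus TF, and for 8 of their values in the comparisons between TFD and the other mutants, 857 values kept their direction and their side of the threshold, 31 lost a call, 12 gained one and 12 changed sign, none of these last being called in either setting. In all 90 checks of the balance between partners, the genotype mean moved by less than the SD between its libraries. With a library left out this was bound to be so, since such a mean cannot then move by a full SD. Only the checks with a prior count of 1 could have come out otherwise. Of the counts of genes called, 118 stayed within 1.5 times and 15 did not. The 118 include all settings of the comparisons of TFD with the other mutants, where none of the 10 genes was called in any setting. In TF versus WT the count of 8 ranged from 5 to 9 with a library left out, with 5 without WT replicate 3 or TF replicate 1 and 9 without either TFD library. In DF versus TF it was 2 (Il10ra and Jak2) with library totals, DESeq2 or only the groups compared, 0 with the Xist term, and 0 to 2 with a library left out. Of 15 pairs of libraries with the same replicate number, 3 correlated above 0.1 in their deviations from the genotype mean. Of 30 pairs with different numbers, 7 did. With so few libraries per genotype these pairs are not independent, so this cannot decide whether the numbers pair the libraries. With the replicate number as a block, the count in DF versus TF was 0, Il10ra in DF versus WT lost its call (adjusted p = 0.0566), Jak2 in TF versus WT gained one (adjusted p = 0.0463), and Il10rb in TFD versus WT changed sign to -0.0137. With library totals in DF versus TF, Ifngr2 became -0.0328 and Jak1 -0.0109, and with the Xist term Tyk2 became 0.0255. With a library left out, values of both signs were seen for Ifnar1 in DF versus WT (-0.0385 to 0.20), Il10rb in DF versus WT (-0.033 to 0.25) and TFD versus WT (-0.15 to 0.17), Jak2 in TFD versus WT (-0.0303 to 0.45), and Jak1 (-0.0762 to 0.13) and Tyk2 (-0.0743 to 0.0221) in DF versus TF. The causes of these changes were not tested. Ifnar2, Ifngr1 and Tyk2 kept their calls against WT in all 19 alternatives and all 3 genotypes. Depth limits Ifng, with 8 to 50 counts per library, more than the other 9 genes.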
